A study of Homo sapiens with 17 samples.

Results

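Kinesins are a family of motor proteins, most of which walk along microtubules, and 42 kinesin genes were measured on the arrays described here. They are all the genes whose single symbol is KIF or KIFC followed by a number and, for some, a letter from A to C, and each was read by 1 probe set, out of 17687 named genes in all. By textbook function 15 were placed with the motors of cell division (mitotic kinesins), 17 with the motors of intracellular transport, and 10 in a mixed group of ciliary, developmental and little-studied members. The study exposed human breast cell lines to Maraviroc, a drug used against HIV, or to DZH_2, known here by its code name alone, and measured RNA on Affymetrix whole-transcript arrays. Cells were seeded for 24 h and then treated for 48 h at doses named IC20 and IC50. These names stand for 20% and 50% inhibition, and the sources used here give no concentrations. A treatment time is recorded for the arrays with a compound, and none for the arrays without one.

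MDA-MB-231, a triple-negative breast cancer line of mesenchymal shape, gave 13 arrays: 2 with Maraviroc IC20, 2 with Maraviroc IC50, 2 with DZH_2 IC20, 2 with DZH_2 IC50, 2 with ethanol as the solvent control of Maraviroc, 2 with DMSO as the solvent control of DZH_2, and 1 untreated. Another 4 arrays were titled MCF10, the name of a family of non-tumorigenic breast epithelial lines, 1 for each dose of DZH_2, 1 for DMSO and 1 for untreated cells. The cell line field of those 4 arrays nevertheless names MDA-MB-231, and the titles were followed. No genetic change was labelled in any group. The labels do not say whether the 2 arrays of a group came from separate cultures, so every p-value measures the spread between arrays, which may be technical. Precision is limited by how few arrays there are.

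Most kinesins have a motor domain that hydrolyses ATP to step along a microtubule, usually toward the plus end. Mitotic members build the bipolar spindle, move and align chromosomes, shorten microtubules, and organise the central spindle on which the daughter cells separate, and many of their genes are transcribed mainly in the late cell cycle. Transport members carry vesicles, mitochondria, endosomes and ciliary cargo throughout the cell cycle, with light chains and adaptors linking them to cargo, while dynein moves the opposite way.

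All values are the deposited log2 signals, so a difference of 1 is a doubling, and levels of different probe sets were not set against each other. A level was called near the negative controls where it lay below the 75th percentile of 612 negative control probe sets. In both solvent groups of MDA-MB-231, 13 of 15 mitotic, 12 of 17 transport and 5 of 10 other kinesins stood above that level. KIF2B, KIF4B, KIF5A, KIF5C, KIF12, KIF17, KIF26A and KIF26B lay near it in all 11 groups of the series. KIF4A and KIF4B are near-identical relatives, so their separate signals are uncertain, and the probe set named for KIF5C lists only a noncoding accession.

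The 2 Maraviroc IC50 arrays stood apart from the rest. Their interquartile range over all genes was 4.05 to 4.07, against 4.21 to 4.65 on the other MDA-MB-231 arrays. Their correlation with each other was 0.960, against 0.984 to 0.991 in the other pairs of replicates. The typical standard deviation of a gene between them was 0.546, against 0.277 to 0.366 in the other groups. The part of these differences in the Maraviroc IC50 results was not tested. In bulk RNA, fewer cells of a kind and less RNA per cell cannot be told apart.

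At IC50, Maraviroc was accompanied by lower signal of most mitotic kinesins and of a few transport kinesins. In all, 18 of the 42 kinesins fell against ethanol and 0 rose, at a Benjamini-Hochberg adjusted p under 0.05 in limma's moderated test across all genes. Among all genes, 15% fell and 12% rose. Of the mitotic kinesins 12 of 15 fell, with a median log2 difference of -3.48, against 5 of 17 transport kinesins with a median of 0.11 and 1 of 10 others with a median of 0.03. The median over all genes was 0.11.

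The motors that build the spindle poles and hold them apart were among the members that fell. KIF11 (Eg5), which pushes the poles apart, had a log2 signal of 6.22 and 5.64 on the Maraviroc IC50 arrays, against 9.64 and 9.51 on the ethanol arrays, a difference of -3.64 ± 0.44 (SE, adjusted p = 7.9e-05). Its backup motor KIF15 differed by -3.13 ± 0.41 (adjusted p = 0.00013). The pole-focusing motor KIFC1 (HSET), which walks toward the minus end, had 6.51 and 6.04 with Maraviroc IC50, against 11.30 and 10.90 with ethanol, a difference of -4.83 ± 0.37 (adjusted p = 3.3e-06). For each of these motors both treated arrays lay far below both solvent arrays.

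Motors that act on chromosomes and microtubule ends fell in the same comparison. KIF2C (MCAK), the depolymerase of centromeres, had 5.06 and 5.76 on the Maraviroc IC50 arrays and 10.66 and 10.71 on the ethanol arrays, a difference of -5.28 ± 0.34 (adjusted p = 1.5e-06). The chromokinesin KIF4A had 4.51 and 4.38 with Maraviroc IC50, against 9.14 and 8.95 with ethanol. KIF22 (KID), which pushes chromosome arms outward, had 8.08 and 6.49 on the treated arrays and 10.19 and 9.63 on the ethanol arrays, a difference of -2.62 ± 0.49 (adjusted p = 0.0017). The kinesin-8 motors KIF18A, which damps chromosome movement at the metaphase plate, and KIF18B, which trims astral microtubules, differed by -2.95 ± 0.53 and -3.48 ± 0.29. KIF22 was the one fallen mitotic kinesin that stayed above the negative controls at Maraviroc IC50.

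The motors of the central spindle and midbody also fell. KIF20A (MKLP2), which carries the chromosomal passenger complex to the midzone, had 6.19 and 4.44 on the Maraviroc IC50 arrays, against 10.64 and 10.55 on the ethanol arrays, a difference of -5.28 ± 0.53 (adjusted p = 2.2e-05). KIF23 (MKLP1), the motor of centralspindlin, had 6.71 and 5.21 with Maraviroc IC50 and 10.43 and 9.24 with ethanol, a difference of -3.88 ± 0.57 (adjusted p = 0.00031). KIF20B, a midbody motor, had 5.20 and 4.36 on the treated arrays, against 9.81 and 9.04 on the ethanol arrays. KIF14, which works with citron kinase in cytokinesis, differed by -3.43 ± 0.38. The treated arrays of KIF20A differed from each other more than its ethanol arrays did, and the groups did not overlap for any of these genes.

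Because 11 of the 12 fallen mitotic kinesins ended near the negative controls, the sizes of their differences depend on that floor. All 12 kept their call and direction under each of the 12 alternative settings run for this comparison. All 12 also had both treated arrays below both ethanol arrays, a pattern seen in 25.7% of all genes. The 3 mitotic kinesins that did not pass were KIF2A, a depolymerase of spindle poles that also acts in neurons, and the dim KIF2B and KIF4B. KIF2A stayed well above the negative controls, with 10.46 and 9.88 on the Maraviroc IC50 arrays and 10.53 and 9.91 on the ethanol arrays.

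**Figure D1:**
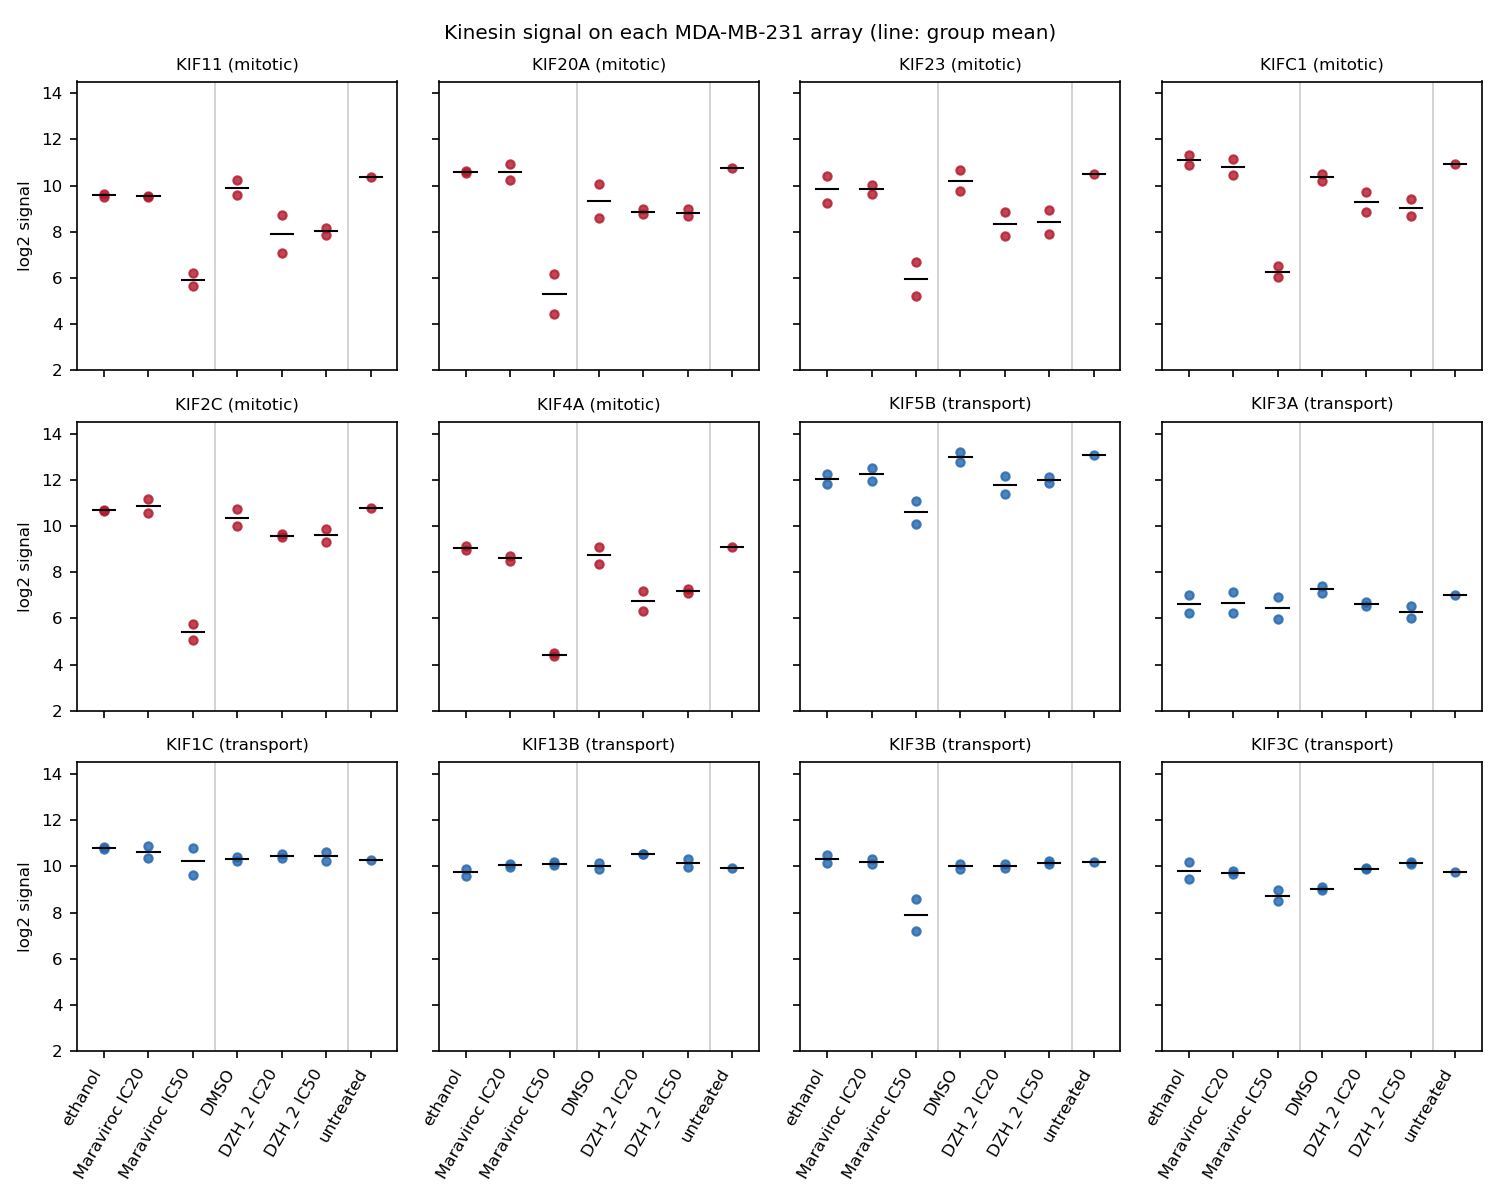
Log2 signal of 12 kinesins on each of the 13 MDA-MB-231 arrays, 1 panel per gene, with arrays grouped along the x axis by treatment and a line at each group mean. In the panels of the mitotic kinesins KIF11, KIF20A, KIF23, KIFC1, KIF2C and KIF4A both Maraviroc IC50 arrays lie below both ethanol arrays. The transport kinesins KIF3B, KIF3C and KIF5B do the same, as do 25.7% of all genes. For the transport kinesins KIF3A and KIF1C the groups overlap, and KIF13B lies higher with Maraviroc IC50.

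The transport kinesins gave a mixed picture at Maraviroc IC50. KIF3B, which pairs with KIF3A in the kinesin-2 motor of cilia, had 7.21 and 8.58 on the Maraviroc IC50 arrays, against 10.13 and 10.48 on the ethanol arrays, a 5.33-fold lower signal (log2 difference -2.41 ± 0.37, adjusted p = 0.00042). KIF5B, the ubiquitous conventional kinesin heavy chain, had 10.10 and 11.09 with Maraviroc IC50 and 12.26 and 11.83 with ethanol (-1.46 ± 0.38, adjusted p = 0.012). KIF3C, an alternative partner of KIF3A, had 8.98 and 8.50 on the treated arrays, against 9.46 and 10.19 on the ethanol arrays (-1.08 ± 0.29, adjusted p = 0.014). KIF1B, which carries vesicles and mitochondria, differed by -0.95 ± 0.28, and KIF21A, which restrains microtubule growth at the cell cortex and was named after its value was seen, by -1.09 ± 0.34. Of these 5, KIF3B alone kept its call under all 12 alternatives. With all 5 MDA-MB-231 control arrays as the comparison group KIF3C lost its call, and its DMSO arrays had 8.98 and 9.10. KIF3C lost its call without Maraviroc IC50 replicate 2 or ethanol replicate 2, KIF1B without Maraviroc IC50 replicate 1 or ethanol replicate 2, and KIF21A without Maraviroc IC50 replicate 1 or either ethanol array, with adjusted p-values of up to 0.15, 0.17 and 0.14 over all alternatives.

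For KIF5B the adjusted p was 0.083 without Maraviroc IC50 replicate 1 and 0.10 without ethanol replicate 1. Transport kinesins that did not pass included both abundant and dim members. KIF3A, the shared motor subunit of kinesin-2, had 5.96 and 6.95 on the Maraviroc IC50 arrays and 7.03 and 6.25 on the ethanol arrays, which overlap. KIF1C, a carrier of dense-core vesicles and integrins, had 10.80 and 9.65 with Maraviroc IC50, against 10.75 and 10.86 with ethanol. It passed the test without Maraviroc IC50 replicate 1, at -1.15 (adjusted p = 0.015). KIF13B, which carries the scaffold protein DLG1, had 10.07 and 10.18 on the treated arrays and 9.60 and 9.91 on the ethanol arrays (0.37 ± 0.25, adjusted p = 0.32). KIFC3, a minus-end motor of the Golgi and adherens junctions, had 7.79 and 8.29, against 7.24 and 7.27 with ethanol (0.79 ± 0.30, adjusted p = 0.071).

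Among the other kinesins KIF27, a relative of KIF7, was the one that fell, by 1.28 ± 0.42 on the log2 scale (adjusted p = 0.037), a call kept under 5 of 12 alternatives and lost without Maraviroc IC50 replicate 1 or either ethanol array (adjusted p up to 0.20). Scaling moved the balance of calls over all genes. Centring each array on its median raised the median difference of all genes to 0.28 and gave 3018 genes that rose and 2308 that fell, against 2122 and 2656 on the deposited scale. On the centred scale 16 kinesins fell and 2 (KIF2B and KIFC3) rose, and all 12 mitotic kinesins remained among those that fell. Quantile normalization gave 1 kinesin that rose (KIFC3) and 16 that fell.

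**Figure D2:**
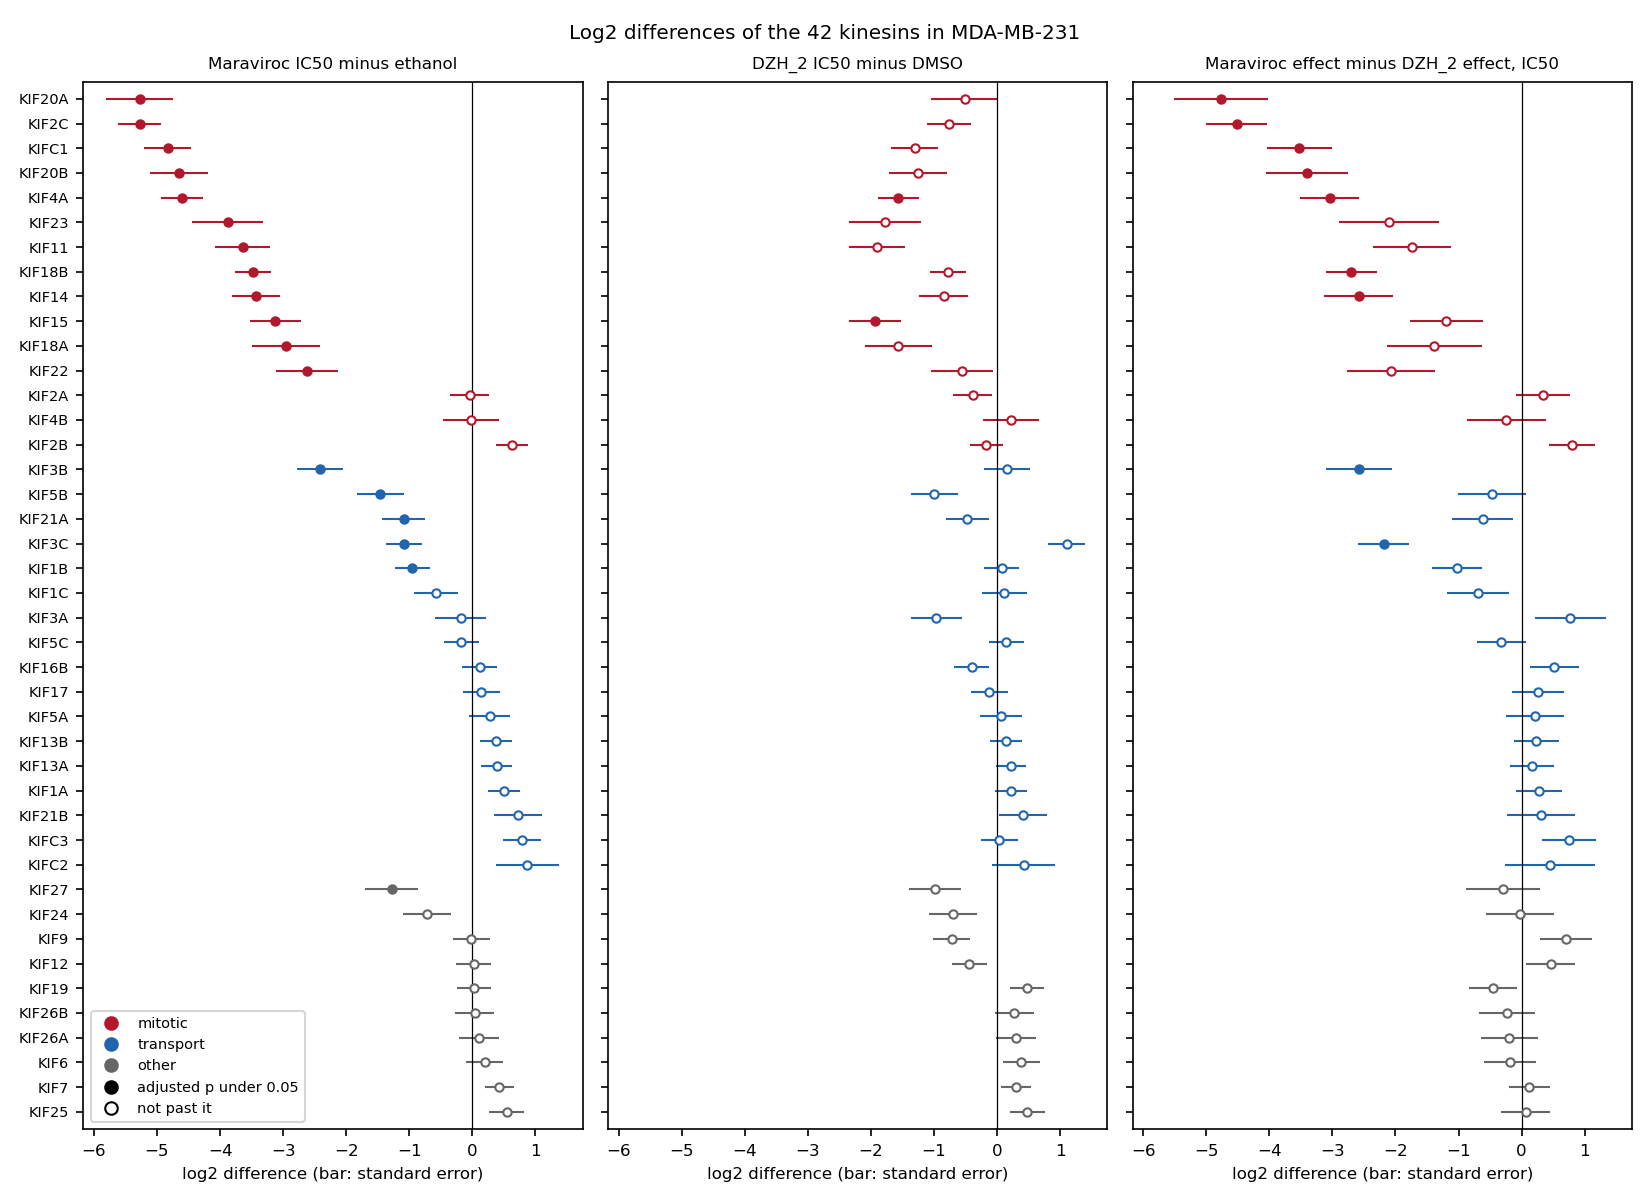
Log2 difference of each of the 42 kinesins with its standard error (x axis), for Maraviroc IC50 minus ethanol, DZH_2 IC50 minus DMSO, and the difference between these effects. Filled points passed an adjusted p of 0.05: 18 kinesins in the Maraviroc panel, 2 in the DZH_2 panel and 9 in the panel of the difference.

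Genes that work with the mitotic kinesins fell with them. Of 17 measured spindle and midzone partners 15 fell and 0 rose at Maraviroc IC50, with a median log2 difference of -3.86. Over all genes 15% fell and 12% rose, with a median of 0.11. TPX2, which activates Aurora A on the spindle, differed by -5.88 ± 0.32 (adjusted p = 6.6e-07), and NUSAP1, which bundles spindle microtubules, by -6.11 ± 0.42. CDCA8, a subunit of the chromosomal passenger complex that KIF20A carries, differed by -4.86 ± 0.35, and the spindle kinase AURKA by -3.86 ± 0.30. All 10 genes of a general proliferation list fell, with a median of -4.96, among them MKI67, CCNA2, CCNB1, CDK1 and FOXM1. The mean log2 signal of that list was 6.67 to 7.42 on the Maraviroc IC50 arrays, against 11.8 to 12.1 on the ethanol arrays, and the mean over the mitotic kinesins was 5.35 to 5.91, against 8.54 to 9.01. The part of proliferation in the kinesin result was not tested.

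Partners of the transport kinesins included genes that rose and genes that fell. Of 17 measured, 3 rose (17.6%) and 4 fell (23.5%), with a median of 0.25, beside the 12% and 15% of all genes. MAPK8IP3 (JIP3), a cargo adaptor of kinesin-1, rose by 2.56 ± 0.30 (adjusted p = 6.3e-05), and MAPK8IP1 (JIP1), another such adaptor, rose by 1.77 ± 0.30. PLEKHM2 (SKIP), which links kinesin-1 to lysosomes, rose by 1.87 ± 0.23, while KIFBP, which binds and inhibits several kinesin motor domains, fell by 2.40 ± 0.39. In the list of dynein and dynactin genes, 3 of 18 rose (16.7%) and 5 fell (27.8%). The dynein heavy chain DYNC1H1 and the intermediate chain DYNC1I2 differed by -2.11 ± 0.26 and -2.87 ± 0.33, and the dynein regulator NDEL1 by 1.37 ± 0.26.

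**Figure D3:**
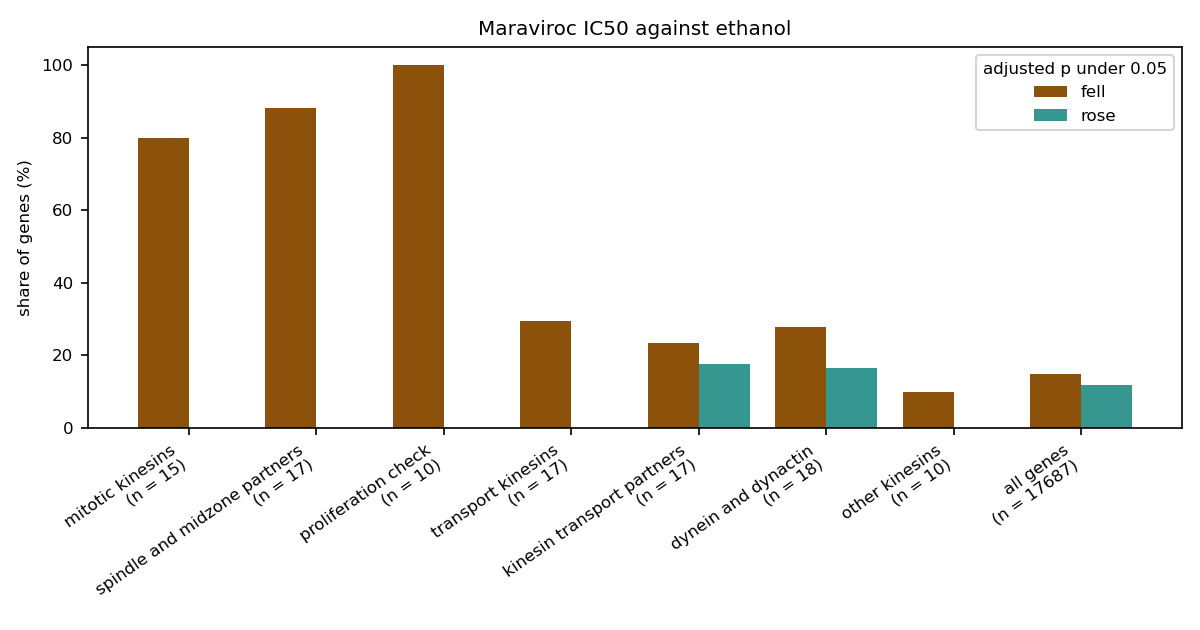
Share of each gene list that fell or rose at Maraviroc IC50 against ethanol (y axis, percent of measured genes, adjusted p under 0.05 in limma). Of the mitotic kinesins 12 of 15 fell, of the spindle and midzone partners 15 of 17 and of the proliferation list 10 of 10, beside 15% of all genes.

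Promoters are shown for 6 kinesins that fell at Maraviroc IC50, 4 mitotic and 2 transport, because the mitotic members moved together. Each line gives the 150 bases before the annotated gene start, 5′ to 3′ on the gene's own strand, from RefSeq on GRCh38.p14. Capitals mark CCAAT boxes (CCAAT or its reverse complement ATTGG) and cell cycle homology elements (TTTGAA, its reverse complement TTCAAA, or the palindrome TTCGAA), abbreviated CHR.
KIF20A, chr5:138178962-138179111, plus strand: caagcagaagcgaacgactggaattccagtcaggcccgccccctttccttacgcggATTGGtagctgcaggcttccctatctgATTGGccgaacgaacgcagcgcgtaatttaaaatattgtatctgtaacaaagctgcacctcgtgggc
KIF23, chr15:69414199-69414348, plus strand: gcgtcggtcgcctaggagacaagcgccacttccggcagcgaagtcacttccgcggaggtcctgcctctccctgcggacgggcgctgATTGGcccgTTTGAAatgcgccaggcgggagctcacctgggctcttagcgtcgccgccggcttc
KIFC1, chr6:33391673-33391822, plus strand: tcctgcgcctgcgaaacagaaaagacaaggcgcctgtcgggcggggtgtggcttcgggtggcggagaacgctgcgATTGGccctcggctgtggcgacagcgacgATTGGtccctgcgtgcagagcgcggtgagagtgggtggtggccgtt
KIF2C, chr1:44739687-44739836, plus strand: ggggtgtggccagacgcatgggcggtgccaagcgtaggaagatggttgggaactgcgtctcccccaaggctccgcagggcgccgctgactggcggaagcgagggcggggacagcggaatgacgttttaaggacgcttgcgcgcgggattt
KIF3B, chr20:32277501-32277650, plus strand: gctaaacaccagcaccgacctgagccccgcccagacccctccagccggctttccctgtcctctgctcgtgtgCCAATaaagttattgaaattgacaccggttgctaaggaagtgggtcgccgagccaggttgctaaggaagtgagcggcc
KIF5B, chr10:32056426-32056575, minus strand: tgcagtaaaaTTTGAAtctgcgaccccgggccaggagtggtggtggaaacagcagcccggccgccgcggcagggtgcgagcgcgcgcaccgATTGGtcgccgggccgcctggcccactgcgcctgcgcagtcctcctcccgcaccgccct

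Promoters were found for 34 of the 42 kinesins, and KIF13B, KIF19, KIF21B, KIF26B, KIF27, KIF5A, KIFC2 and KIFC3 had no entry. The first promoter listed was used for each kinesin. The shares of all promoters count every promoter listed, whether or not its gene was measured here. Over the 250 bases before the start, and searching both strands, a CCAAT box was present in 11 of 15 mitotic kinesins (73.3%), in 3 of 12 transport kinesins (25%) and in 32% of all 35116 promoters of the table. A CHR was present in 6 of 15 mitotic kinesins (40%), 1 of 12 transport kinesins (8.33%) and 14.3% of all promoters. Both elements occurred together in 33.3% of mitotic and 8.33% of transport kinesins, and in 5.05% of all promoters. An E2F-type element (TTTGGCG or TTTCGCG) was present in 1 of 15 mitotic and 3 of 12 transport kinesins, and in 2.65% of all promoters. No match of one element overlapped a match of another.

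Of the 12 mitotic kinesins that fell at Maraviroc IC50, 10 had a CCAAT box and 6 a CHR. KIF2C, whose difference was among the largest, had none of the 3 elements in the window searched. KIF5B, a transport kinesin, had a CCAAT box and a CHR, as KIF23 did. These matches describe letters in a window and do not show that a factor binds there.

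At IC20, Maraviroc was not accompanied by any kinesin that passed the test. By limma, 0 of 42 kinesins and 0% of all genes passed in either direction. An unadjusted p under 0.05 was found in 0 kinesins and in 309 genes (1.75%). The fit shares its spread with the Maraviroc IC50 arrays, which differed more from each other, and without them 0 kinesins passed. The mitotic median was -0.03 and the transport median -0.02. The 4 kinesins with the smallest p were KIF4A at -0.45 ± 0.33, KIF13B at 0.30 ± 0.25, KIF26A at 0.38 ± 0.32 and KIF9, a motor of motile cilia, at -0.34 ± 0.29, each with an adjusted p of 1. KIF11 had 9.54 and 9.51 on the Maraviroc IC20 arrays, against 9.64 and 9.51 on the ethanol arrays. KIF20A had 10.22 and 10.91 with Maraviroc IC20 and 10.64 and 10.55 with ethanol, so the groups overlapped.

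Set directly against IC20, Maraviroc IC50 again gave 18 kinesins that fell (12 mitotic, 5 transport and 1 other) and 0 that rose, where 14.8% of all genes fell. KIF2C differed by -5.46 ± 0.34 and KIF20A by -5.25 ± 0.53 between the doses (adjusted p = 1.3e-06 and 2.4e-05). KIF5B differed by -1.66 ± 0.38 (adjusted p = 0.006), a call lost without Maraviroc IC20 replicate 1 (adjusted p = 0.073). KIF18A lost its call without the same array (adjusted p = 0.052), and the transport count was then 1. Of the other transport kinesins KIF3B kept its call in all 11 alternatives, KIF3C and KIF21A in 5 and KIF1B in 3, and KIF27 kept its call in 6. This comparison shares its IC50 arrays with the one against ethanol. After median centring 2907 genes rose and 2234 fell here, against 2109 and 2610 on the deposited scale.

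DZH_2 was accompanied by lower signal of many mitotic kinesins in MDA-MB-231, few of which passed the test. At IC50, 2 of 42 kinesins fell against DMSO and 0 rose, where 0.984% of all genes fell and 0.582% rose. The mitotic median was -0.85, the transport median 0.12 and the median of all genes 0.04. KIF15 had 5.72 and 6.03 on the DZH_2 IC50 arrays, against 7.95 and 7.66 on the DMSO arrays (-1.93 ± 0.41, adjusted p = 0.039), and ended near the negative controls. KIF4A had 7.26 and 7.08 with DZH_2 IC50 and 9.11 and 8.36 with DMSO (-1.56 ± 0.33, adjusted p = 0.039). Neither call survived the loss of DZH_2 IC50 replicate 1, DZH_2 IC50 replicate 2, DMSO replicate 1 or DMSO replicate 2, each of which left 0 kinesins past the test. With all 5 MDA-MB-231 control arrays as the comparison group, a choice made after seeing the data, 7 mitotic kinesins fell. In that fit 2.21% of all genes fell.

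Several members lay just outside the threshold. KIF11 had 8.14 and 7.88 on the DZH_2 IC50 arrays, against 10.26 and 9.57 on the DMSO arrays (-1.90 ± 0.44, adjusted p = 0.052). KIF3C lay in the other direction, with 10.09 and 10.19 on the DZH_2 IC50 arrays and 8.98 and 9.10 on the DMSO arrays (1.10 ± 0.29, adjusted p = 0.078). KIF23 differed by -1.78 ± 0.57 and KIFC1 by -1.31 ± 0.37. In 13 of 15 mitotic kinesins both DZH_2 IC50 arrays lay below both DMSO arrays, a pattern found in 23.5% of all genes, and the exceptions were KIF20A and KIF4B. KIF20A had 8.98 and 8.67 with DZH_2 IC50, against 10.06 and 8.60 with DMSO, and the spread lay in its DMSO arrays.

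At IC20, DZH_2 gave 1 kinesin that fell and 0 that rose, where 0.435% of all genes fell. KIF4A had 7.21 and 6.34 on the DZH_2 IC20 arrays, against 9.11 and 8.36 on the DMSO arrays (-1.96 ± 0.33, adjusted p = 0.024). That call was lost without DZH_2 IC20 replicate 2, DMSO replicate 1 or DMSO replicate 2. KIF11 had 8.71 and 7.07 with DZH_2 IC20 and 10.26 and 9.57 with DMSO (-2.03 ± 0.44, adjusted p = 0.055). KIF15 differed by -1.60 ± 0.41, KIF23 by -1.88 ± 0.57 and KIF5B by -1.21 ± 0.38 (adjusted p = 0.18). The mitotic median was -1.06 and the transport median 0.08. In 12 of 15 mitotic kinesins both DZH_2 IC20 arrays lay below both DMSO arrays, against 22.2% of all genes. The 2 DZH_2 comparisons share their DMSO arrays.

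Partner genes were lower with DZH_2 in a few named cases. NDC80, a kinetochore protein that grips microtubules, fell by 2.16 ± 0.37 at IC50 and by 1.91 ± 0.37 at IC20, and TPX2 fell by 1.78 ± 0.32 at IC50 and by 1.96 ± 0.32 at IC20. These were the 2 of 17 spindle and midzone partners that passed at each dose, where 0.984% of all genes fell at IC50 and 0.435% at IC20. MKI67 was the 1 of 10 proliferation genes that passed, at -2.12 ± 0.47 at IC50 and -2.51 ± 0.47 at IC20. The mean signal of the proliferation list was 9.26 to 10.5 at DZH_2 IC20 and 9.58 to 10.6 at DZH_2 IC50, against 11.1 to 11.7 with DMSO, and its part in the kinesin values was not tested. No transport partner and no dynein or dynactin gene passed the adjusted test at either dose, where 3 of 17 and 1 of 18 had an unadjusted p under 0.05 at IC50 and 2 of 17 and 1 of 18 at IC20, beside 15.1% of all genes at IC50 and 12% at IC20. Under quantile normalization 120 genes rose and 116 fell at DZH_2 IC50, against 103 and 174 on the deposited scale.

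The compounds were compared at IC50 by the difference between their effects, each taken against its own solvent. The doses are matched by their inhibition name alone. Of 42 kinesins, 9 were lower in the Maraviroc effect than in the DZH_2 effect and 0 higher, where 4.02% of all genes were lower and 2.15% higher. Of these, 7 were mitotic. KIF20A differed by -4.77 ± 0.75 (adjusted p = 0.0035), KIF2C by -4.51 ± 0.48 (adjusted p = 0.0006), KIFC1 by -3.52 ± 0.52 (adjusted p = 0.0026), KIF20B by -3.40 ± 0.65, KIF4A by -3.04 ± 0.46, KIF18B by -2.70 ± 0.41 and KIF14 by -2.58 ± 0.54. The transport kinesins KIF3B, at -2.58 ± 0.52, and KIF3C, at -2.18 ± 0.41, made up the rest. For KIF3C the ethanol arrays had 9.46 and 10.19 and the DMSO arrays 8.98 and 9.10. The part of that solvent difference in its value was not tested. KIF3B had 7.21 and 8.58 on the Maraviroc IC50 arrays and 10.11 and 10.22 on the DZH_2 IC50 arrays.

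For other mitotic kinesins the difference between the compounds did not pass. KIF11 differed by -1.74, with a 95% interval of -3.09 to -0.39 and an adjusted p of 0.13. KIF23 differed by -2.10, with an interval of -3.84 to -0.37, and passed without Maraviroc IC50 replicate 1 (-2.85, adjusted p = 0.027). The interval of KIF15 was -2.44 to 0.05 and that of KIF18A was -3.02 to 0.25. These mitotic kinesins, like those that passed, ended near the negative controls at Maraviroc IC50. That floor limits the size of their Maraviroc effect, and so of the difference between the compounds. Without DMSO replicate 2 the count was 6, and KIF14, KIF20B and KIF3B lost their calls. Without ethanol replicate 1 it was 7, and KIF14 and KIF20B lost theirs. KIF14 and KIF3B lost theirs without DZH_2 IC50 replicate 2, and KIF3B without ethanol replicate 2. Median centring gave 524 genes higher and 616 lower in this comparison, against 380 and 711 on the deposited scale, with 9 kinesins lower on either.

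The solvents themselves were compared as a background. By limma, 0 of 42 kinesins and 0% of all genes passed between ethanol and DMSO. An unadjusted p under 0.05 was found in 4 kinesins and in 1352 genes (7.64%). Those 4 were KIF3C at 0.79 ± 0.29, KIF16B, a carrier of early endosomes, at -0.72 ± 0.28, KIF5B at -0.93 ± 0.38 and KIF20A at 1.26 ± 0.53. KIF5B had 12.26 and 11.83 on the ethanol arrays and 13.20 and 12.76 on the DMSO arrays, without overlap. The spindle kinesin KIF11 had 9.64 and 9.51 with ethanol, against 10.26 and 9.57 with DMSO, and the groups overlapped.

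The arrays titled MCF10 differed from MDA-MB-231 in many genes, and the marker check did not settle which cells they were. Of 10 epithelial markers 4 were higher in MCF10 by at least 1, 1 (EPCAM, at -1.53) was lower, and 6 lay near the negative controls there, E-cadherin (CDH1) among them. Of 10 mesenchymal markers 6 were higher and 3 lower. KRT5 averaged 9.29 in MCF10 and 4.51 in MDA-MB-231, FN1 17.64 in MCF10 and 10.03 in MDA-MB-231, and ZEB1 7.23 in MCF10 and 12.4 in MDA-MB-231. In MDA-MB-231 CDH1 also lay near the negative controls, at 3.71, and VIM averaged 16.9.

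Without compound, 23 kinesins were lower and 8 higher in MCF10 than in MDA-MB-231, from 2 and 3 arrays (untreated and DMSO) with a term for the solvent. Among all genes 29.2% were lower and 21.7% higher, 50.9% in all. By class, 11 mitotic, 8 transport and 4 other kinesins were lower, and 1 mitotic, 4 transport and 3 other kinesins were higher. The median was -1.81 for mitotic, -0.46 for transport and 0.04 for all genes. The proliferation list had a median of -2.27, with 7 of 10 genes lower and 1 higher, and its part in the kinesin values was not tested.

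KIF5B was lower in MCF10 and stayed above the negative controls there. It had 9.02 and 8.58 on the MCF10 DMSO and untreated arrays, against 13.20 and 12.76 with DMSO and 13.09 untreated in MDA-MB-231 (-4.19 ± 0.26, adjusted p = 1.6e-06). The kinesin-2 subunits KIF3B and KIF3A differed by -3.83 ± 0.25 and -2.47 ± 0.32, and KIFAP3, the protein that joins them to cargo, by -2.08 ± 0.23. Mitotic members that were lower included KIF20B at -3.87 ± 0.28, KIF18A at -3.52 ± 0.42, KIF4A at -3.43 ± 0.28, KIF11 at -3.41 ± 0.35 and KIF23 at -3.22 ± 0.39. KIF20B, KIF18A, KIF4A and KIF3A ended near the negative controls in MCF10, so their differences are smallest sizes, not to be ranked. KIF11 had 7.09 and 6.15 on the MCF10 arrays, against 10.26, 9.57 and 10.36 on the MDA-MB-231 arrays.

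Not every mitotic kinesin was far apart. KIF20A had 9.80 and 9.77 in MCF10, within the 8.60 to 10.76 of MDA-MB-231. KIFC1 had 9.77 and 9.30 in MCF10, against 10.50, 10.20 and 10.94 in MDA-MB-231 (-1.04 ± 0.29, adjusted p = 0.014). That call was lost under quantile normalization (-0.33, adjusted p = 0.38) and under median centring (-0.61, adjusted p = 0.083). It was also lost without either untreated array (-0.59). Leaving out one or the other gives the same fit, since the solvent term takes up the untreated array that remains. KIF13B, at -1.42, lost its call under quantile normalization (-0.67) and without the MCF10 DMSO array (-0.80).

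Of the kinesins higher in MCF10, KIF1C had 11.52 and 11.56 in MCF10, against 10.41, 10.24 and 10.30 in MDA-MB-231 (1.23 ± 0.23, adjusted p = 0.0016). KIF25, a centrosomal kinesin, KIF1A, a carrier of synaptic vesicle precursors, and KIFC2, a minus-end motor of neurons, named after their values were seen, differed by 0.86, 0.73 and 0.66. Each lost its call without MDA-MB-231 DMSO replicate 1 and without the MCF10 DMSO array, with adjusted p-values of up to 0.18, 0.25 and 0.23 over all alternatives. The other 4 called higher, KIF4B, KIF17, KIF26A and KIF26B, lay near the negative controls in both lines, as did KIF12 among those called lower. Median centring gave 12 kinesins higher and 18 lower, with 7395 genes higher and 4036 lower and a median of 0.47, against 3836 and 5163 genes on the deposited scale. Quantile normalization gave 7 higher and 18 lower.

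**Figure D4:**
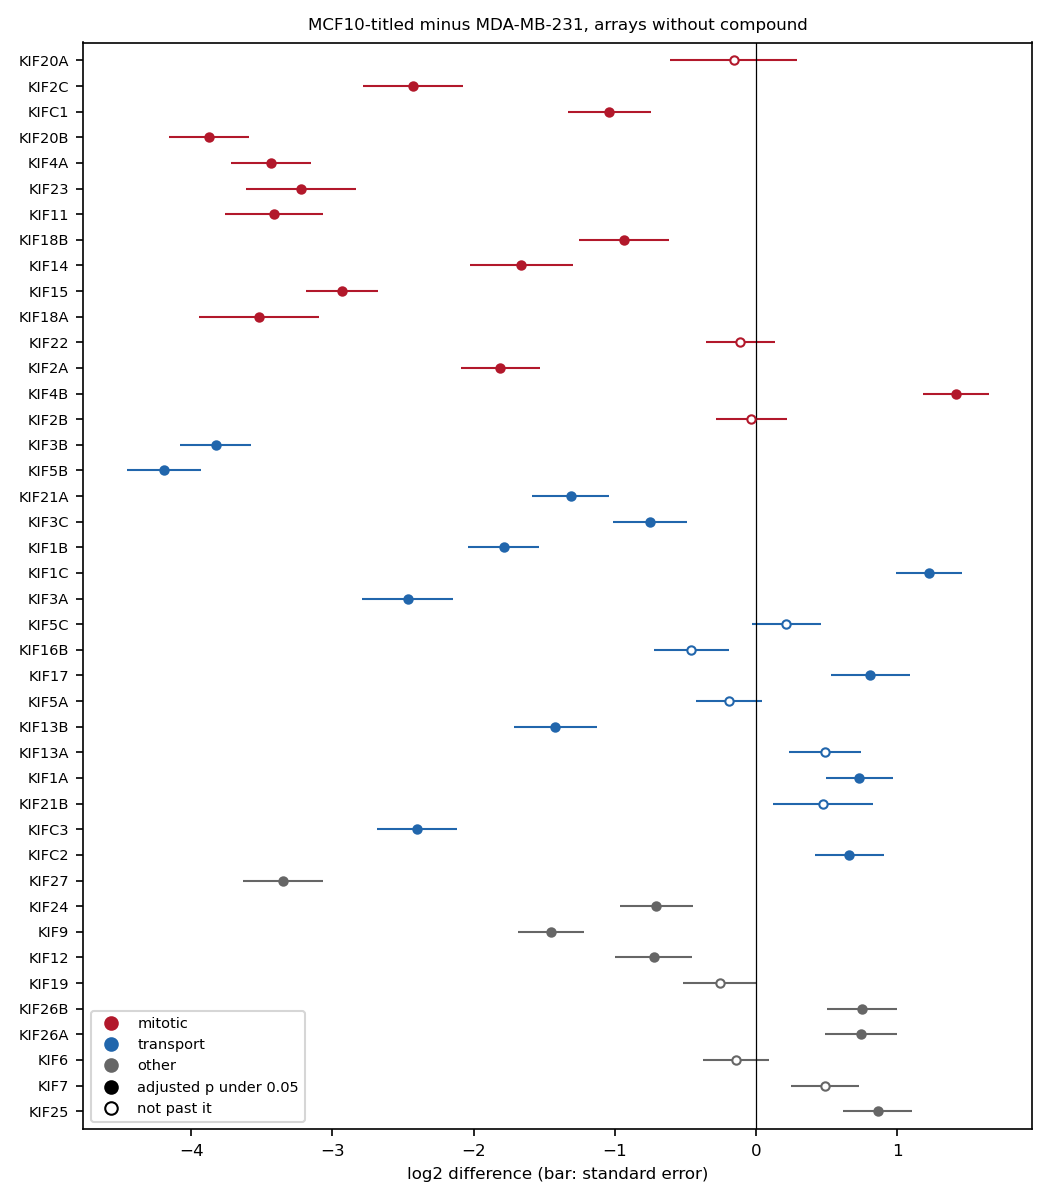
Log2 difference of each of the 42 kinesins between arrays titled MCF10 and MDA-MB-231 arrays without compound, with its standard error (x axis). KIF5B lies at -4.19, and filled points mark the 31 kinesins past an adjusted p of 0.05.

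With DZH_2 in MCF10, at 1 array a condition and so with no test, many mitotic kinesins had lower signal than with DMSO. The count takes kinesins at least 1 away from DMSO, in the same direction, at IC20 and at IC50. On that measure 7 of 15 mitotic kinesins were lower, where 4.88% of all genes were, and 0 were higher. Of the transport kinesins 0 were lower and 3 (KIF13B, KIF1B and KIF3A) were higher, where 4.52% of all genes were. Against the untreated array in place of DMSO, 5 mitotic kinesins were lower at both doses, without KIF11 and KIF18B, where 4.81% of all genes were. None of those 3 transport kinesins was then at least 1 higher at both doses, while KIF16B and KIF5B were, where 4.56% of all genes were. The mitotic median was -0.91 at IC20 and -1.64 at IC50 against DMSO, and -0.36 at IC20 and -0.94 at IC50 against the untreated array. KIF20A had 9.77 untreated and 9.80 with DMSO, then 7.56 at DZH_2 IC20 and 5.39 at DZH_2 IC50. KIF22 had 9.57 untreated, 9.33 with DMSO, 6.87 at IC20 and 6.26 at IC50. KIFC1 had 9.30 untreated, 9.77 with DMSO, 7.30 at IC20 and 6.30 at IC50, and KIF2C had 7.54, 8.52, 6.09 and 4.61 in the same order. In these genes both treated arrays lay below both control arrays, and the share of all genes with that pattern in MCF10 alone was not counted.

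The other 3 mitotic kinesins counted were KIF11, KIF15 and KIF18B, and KIF15 lay near the negative controls on all 4 arrays. The untreated array itself lay at least 1 below the DMSO array in 2 mitotic kinesins, where 4.17% of all genes did. Among the partners, 11 of 17 spindle and midzone genes and 8 of 10 proliferation genes were at least 1 below DMSO at both doses. Of all genes 4.88% were. These counts were not made against the untreated array. That array itself lay at least 1 below DMSO in 2 of the 17 and 3 of the 10. At IC50 the spindle and midzone median was -2.03 against DMSO and -1.50 against untreated. The proliferation median was -2.65 against DMSO and -1.66 against untreated. At IC20 both medians were also less negative against untreated. The mean signal of the proliferation list was 9.24 untreated, 9.85 with DMSO, 7.67 at DZH_2 IC20 and 7.09 at DZH_2 IC50. KIF13B had 9.15 untreated, 8.12 with DMSO, 9.16 at IC20 and 9.14 at IC50, so its treated arrays matched the untreated one.

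**Figure D5:**
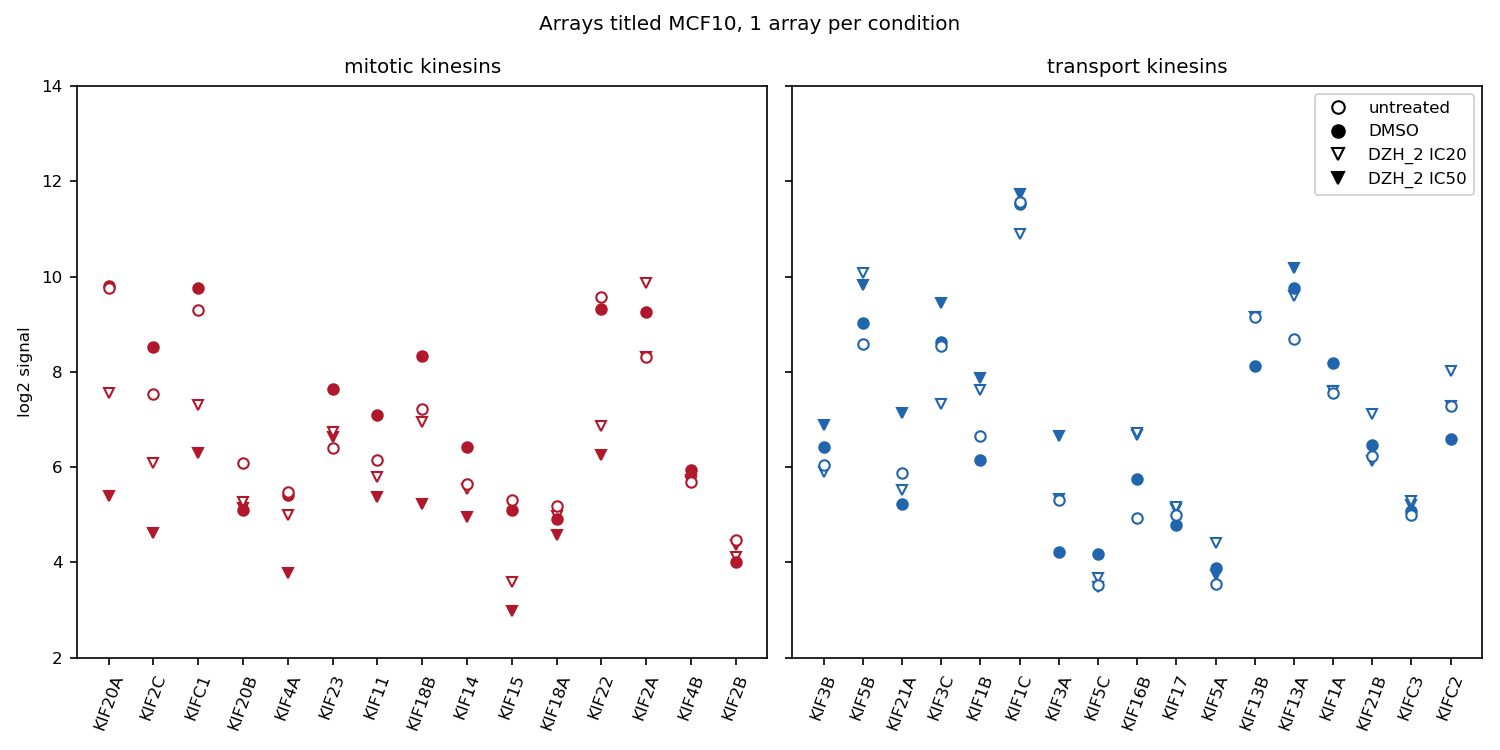
Log2 signal of the 15 mitotic and 17 transport kinesins on the 4 arrays titled MCF10, with 1 point for each of untreated, DMSO, DZH_2 IC20 and DZH_2 IC50. KIF20A lies at 7.56 and 5.39 with DZH_2 and at 9.77 and 9.80 without it.

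In 8 kinesins every DZH_2 array lay below every DMSO array in MDA-MB-231, and below the DMSO and untreated arrays in MCF10, and all 8 were mitotic. They were KIF11, KIF14, KIF15, KIF18B, KIF22, KIF2C, KIF4A and KIFC1, and 3.75% of all genes had that pattern. In MCF10, KIF15 and KIF4A lay near the negative controls on all 4 arrays, and KIF14 on all but the DMSO array. The same 8 had the pattern with the untreated array added to DMSO, or with all 5 MDA-MB-231 controls, where 3.14% and 2.11% of all genes did. Above the same DMSO and untreated arrays lay KIF6 and KIF7, named after their values were seen, a ciliary motor and a regulator of Hedgehog signalling at the ciliary tip, and 4.36% of all genes. KIF7 lost this pattern once the untreated MDA-MB-231 array was counted, and KIF6 lay near the negative controls on all 4 MCF10 arrays. KIF3A and KIF5B lay below DMSO in MDA-MB-231 and above both controls in MCF10, as 3.26% of all genes did, but in neither did every DZH_2 array lie below both ethanol arrays of MDA-MB-231.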

How the data were processed

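RNA from 17 samples was hybridised to 1-colour Affymetrix arrays. The authors deposited a table of log2 signals per probe set, with a normalization and summarization not given in the sources used here. Of 24351 probe sets, 17709 carry 1 gene symbol in the platform annotation and 6642 do not. Where a gene had several probe sets (20 genes), the one with the highest mean signal was kept, which gave 17687 genes. Each kinesin had 1 probe set.

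The deposited log2 values were tested unchanged with limma 3.58.1 in R 4.3.3 (lmFit, contrasts, eBayes, Benjamini-Hochberg over all genes). The MDA-MB-231 fit held 12 arrays in 6 groups of 2, without a replicate block and with 6 residual degrees of freedom. The untreated array was left out of it. The line comparison held 5 arrays with 2 residual degrees of freedom. MCF10 arrays with DZH_2 were described with no test. The fit was tested on simulated data.

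Kinesin classes, partner lists and markers were chosen with earlier results of these data known. Genes named are, in each comparison, up to 14 members past the threshold by size (or the 4 smallest p), KIF11, KIF20A, KIF23, KIFC1, KIF5B, KIF3A, KIF1C and KIF13B throughout, and up to 4 genes of each partner list by p. A gene named once may recur. A few genes of the partner lists were not analysed here. Alternatives were quantile normalization, median centring, leaving out dim genes, fitting only the groups compared or without the Maraviroc IC50 arrays, array weights, a variance trend, a replicate block, leaving out each array, and, added later, all 5 MDA-MB-231 controls. Figures were drawn with matplotlib 3.10.9.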

Additional observations from a re-analysis of the deposited data

Results flagged for a closer look

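KIF5B and KIF3A stood on opposite sides of their controls in the lines under DZH_2. In MCF10, KIF5B had 9.82 to 10.1 on the DZH_2 arrays, against 8.58 to 9.02 on the DMSO and untreated arrays, a mean difference of 1.15. In MDA-MB-231 it had 11.4 to 12.2 on the DZH_2 arrays, against 12.8 to 13.2 with DMSO, a mean difference of -1.10. KIF3A had 5.33 to 6.66 on the MCF10 DZH_2 arrays, against 4.21 to 5.32 on the MCF10 control arrays, a mean difference of 1.23. In MDA-MB-231 it had 6.02 to 6.73 with DZH_2, against 7.10 to 7.41 with DMSO, a mean difference of -0.79. The lowest DZH_2 value and the highest control value of KIF3A in MCF10 all but touch, and 3 of the 4 MCF10 levels lay near the negative controls. The ethanol arrays of MDA-MB-231, at 11.83 and 12.26 for KIF5B and 6.25 and 7.03 for KIF3A, reached into the range of the DZH_2 arrays. The difference between the lines was not tested in either gene, since each MCF10 condition had 1 array, and 3.26% of all genes had the same pattern.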

How the results depend on the processing

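The count of kinesins past the threshold at DZH_2 IC50, 2 as reported, was 6 when only the groups compared were fitted, 4 without the Maraviroc IC50 arrays, 6 with array weights, 4 with a replicate block, 7 with all 5 controls, and 0 to 0 when each array was left out in turn. At DZH_2 IC20, 1 as reported, it was 2 with dim genes left out, 3 without the Maraviroc IC50 arrays, 3 with array weights, 3 with a replicate block, 5 with all 5 controls, and 0 to 3 when each array was left out. Calls over all genes rose too, except where each array was left out. At DZH_2 IC50 they were 1.57% as reported, 4.62% with only the groups compared, and 4.73% without the Maraviroc IC50 arrays. Array weights gave 5.33%, a replicate block 1.96% and all 5 controls 3.59%. At DZH_2 IC20 they were 0.871% as reported, 1.46% with dim genes left out, and 2.8% without the Maraviroc IC50 arrays. There array weights gave 2.76%, a replicate block 1.15% and all 5 controls 2.37%. Leaving out an array leaves fewer arrays, and for the other settings the cause was not tested. At Maraviroc IC50 the count ran from 13 to 19, with 12 mitotic kinesins that fell in every setting. Between the Maraviroc doses it ran from 12 to 18, and for the difference between the compounds from 6 to 11. It was 0 in every setting for Maraviroc IC20 and for the solvents, and 23 to 31 between the lines, where KIF3C alone of the called kinesins changed sign in a setting. Replicate numbers did not pair the samples: over 15 pairs of groups the correlation of same-numbered deviations ran from -0.15 to 0.30, with 3 over 0.1 and 2 under -0.1. The replicate block left the Maraviroc IC50 count at 18 and gave KIF23 an adjusted p of 0.010 for the difference between the compounds. Signals near the negative controls limit the size of a fall, and 2 arrays a group limit what can pass. Choosing among several probe sets of a gene did not arise for kinesins, so its alternative was not run.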
